A study of Mus musculus with 6 samples.

Results

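Developmental transcription factors were followed in mouse hearts after cardioplegic arrest and reperfusion. The genes were chosen by name: protein-coding genes whose symbols begin with Hox, Tbx, Gata, Nkx, Irx, Pitx, Hand, Mef2, Fox, Sox, Meis, Pbx, Tead, Tcf, Hey, Hes, Id or Hopx in the form used for these families. In the table of transcript levels 93 of 8969 protein-coding genes bore such a name, out of 18382 genes with long non-coding RNAs (lncRNAs) included. The I/R group (ischaemia and reperfusion) was 3 hearts of male mice, stopped for 30 min with Tomas cardioplegia, a solution that halts contraction, and then reperfused for 1 h. The Sham group was 3 hearts of male mice that were kept beating. All 6 hearts had been taken out and perfused through the coronary vessels on a Langendorff apparatus, so the Sham hearts were isolated organs as well. Strain, genotype, age and chamber are not given in the labels, which number the hearts of each group as biological replicates.

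The factors named here build the heart in stages. Gata4, Nkx2-5, Tbx5, Hand and Mef2 factors bind together at the genes of the contractile apparatus, T-box and Irx factors set chambers and conduction tissue apart, and forkhead and Sox factors act largely in the endothelium, the outflow tract and mesenchyme. In the adult heart many of them stay on at low level, and Tead, Hey, Hes, Id and FoxO factors carry the output of the Hippo, Notch, BMP and insulin pathways. The name rule also takes in genes of other kinds. Hopx and the Id proteins do not bind DNA, the Tcf symbols cover both bHLH and HMG-box factors, and Tcf25 is a component of ribosome quality control.

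The cardiac label held only in part. Of 22 genes set down as the cardiac core, 11 had a transcript in the table, among them Gata4, Gata5, Tbx3, Tbx18, Tbx20, Hand2, Mef2c, Irx5, Hopx and Tead1. The other 11 had none, among them Gata6, Nkx2-5, Tbx5, Hand1, Mef2a, Mef2b, Mef2d, Irx3, Irx4 and Meis1. By family, 14 of 39 Hox genes in the mouse RefSeq annotation had a transcript in the table, 9 of 13 Tbx genes, 23 of 44 Fox genes, 11 of 19 Sox genes and 1 of 14 Nkx genes, which was Nkx6-3. All 4 Tead and all 3 Hey genes were present and none of the 3 Meis genes. A missing transcript says nothing of whether a gene was active.

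Levels are FPKM, fragments scaled by transcript length and by the library total, which the authors computed for each transcript and which were summed here per gene. The totals behind them, recovered from the steps of the values, were 7690040 to 8896834 reads in I/R hearts and 7233171 to 9902397 reads in Sham hearts, of which the listed protein-coding transcripts held 38.1% to 39.9% in I/R hearts and 36.8% to 38.3% in Sham hearts. For many factors the listed transcript is short. Gata4 was represented by 1 transcript of 683 bases, Foxp1 by 1 of 406 bases and Mef2c by 5 of 556 to 976 bases, whereas Foxo3, Foxc1 and Sox4 had main transcripts of 6848, 5844 and 4795 bases. What part of a gene's reads the listed transcripts held is not known. The tissue showed the markers of heart muscle: the 7 listed of 9 ventricular cardiomyocyte markers summed to 442 to 508 FPKM in I/R hearts and 578 to 654 FPKM in Sham hearts. Taken list by list, listed lung, skeletal muscle and neutrophil markers each summed to at most 0.71 FPKM in any I/R heart and 0.99 FPKM in any Sham heart. Only 1 of 4 lung, 2 of 5 skeletal muscle and 2 of 4 neutrophil markers had a transcript. These low sums therefore do not show that such cells were absent.

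Foxo3, Hand2, Sox18 and Sox7 stood highest. Foxo3, the forkhead factor held out of the nucleus by insulin and Akt signalling, had 85.7, 96.8 and 119 FPKM in I/R hearts 1, 2 and 3, against 104, 120 and 149 FPKM in Sham hearts 1, 2 and 3. It was the most abundant of all 93 genes in every heart. Hand2, the bHLH factor required for the right ventricle, followed with 69.1, 58.5 and 64.6 FPKM in I/R hearts and 63.6, 64.9 and 70.9 FPKM in Sham hearts. Its 6 values lay within a narrow band and the groups overlapped. Sox18 and Sox7, paired factors of endothelial cells, averaged 50.7 ± 7.4 and 48.7 ± 6.3 FPKM in I/R hearts, and 56.7 ± 9.8 and 45.8 ± 12.4 FPKM in Sham hearts (SD, n = 3 each). Sox18 and Sox7 do not differ in level beyond this spread.

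Heyl and Tead1 were among those that came below. Heyl, a Notch target repressor, averaged 33.6 ± 1.9 FPKM in I/R hearts and 36.0 ± 3.4 FPKM in Sham hearts. In all, 14 genes reached a mean of 10 FPKM over the 6 hearts, among them Tcf25, Sox4, Hey1, Foxo4, Foxs1, Tcf4 and Tbx2, and 42 reached 1 FPKM.

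**Figure D1:**
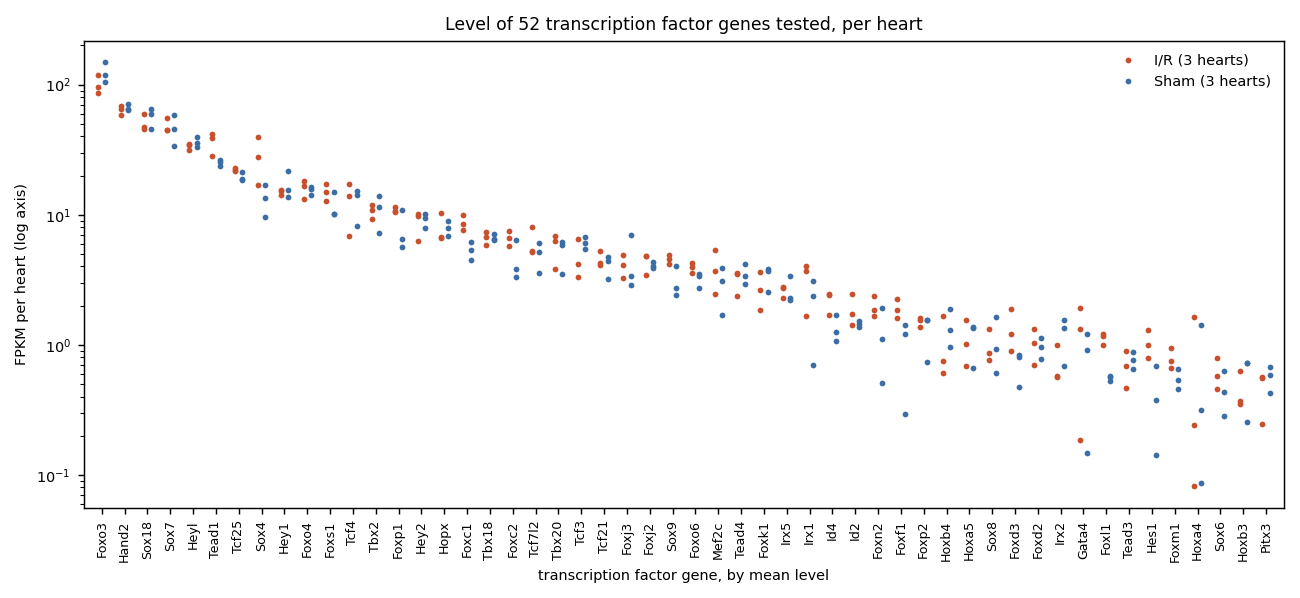
Level of 52 of the 53 transcription factor genes averaging 0.5 FPKM or more, in FPKM on a log axis, ordered by mean over the 6 hearts; each dot is 1 heart, I/R hearts left and Sham hearts right of each tick. Foxo3 and Hand2 lead, the I/R hearts of Tead1 lie above its Sham hearts, and Hoxa4 and Gata4 are spread over more than a factor of 10 within a group.

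The other 40 genes lay below 0.5 FPKM on average, the level required for the test. They had 1 to 74 reads each over the 6 hearts and means of 0.0206 to 0.475 FPKM. The threshold fell between Pitx3, a lens and midbrain factor, at 0.509 FPKM and Sox15 at 0.475 FPKM. These low genes were 10 of the Hox genes (Hoxa2, Hoxa3, Hoxa6, Hoxb2, Hoxd3, Hoxd4, Hoxd8, Hoxd9, Hoxd10 and Hoxd13), 6 of the Tbx genes (Tbx1, Tbx3, Tbx6, Tbx10, Tbx15 and Tbx21), 6 of the Fox genes (Foxf2, Foxh1, Foxj1, Foxn3, Foxp4 and Foxq1) and 5 of the Sox genes (Sox2, Sox5, Sox15, Sox21 and Sox30). Gata3, Gata5, Nkx6-3, Pbx3, Pbx4, Tead2, Tcf7, Tcf7l1, Tcf12, Tcf24, Hes2, Hes7 and Id1 made up the rest. Tbx3, the repressor that keeps conduction tissue from taking on a working myocardial character, had 0.134, 0.232 and 0 FPKM in I/R hearts and 0.166, 0.107 and 0.0285 FPKM in Sham hearts with 15 reads in I/R hearts and 14 in Sham hearts. These 40 genes were not in the main fit, and in limma with no filter none of them had an unadjusted p under 0.05. Tbx10 was the only one with groups apart, all I/R hearts below, on 4 reads in I/R hearts and 12 in Sham hearts. With counts this small a difference between the groups is hard to detect.

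Setting the arrested hearts against the Sham hearts asks which factors differ early in reperfusion. Foxc1, Tead1, Sox4, Foxl1 and Hes1 had higher values in I/R hearts, by a ratio of group means of 1.46 for Tead1 to 2.57 for Hes1, while Hand2, Tbx18, Irx5 and Hopx had nearly equal means. No factor passed the test across all genes. limma on log2(FPKM + 1), with Benjamini-Hochberg adjustment over 12114 genes, gave 0 of 53 factors at an adjusted p under 0.05, and 0 of all genes (0%); the smallest adjusted p was 0.471 among the factors and 0.385 among all genes. limma voom on recovered reads also gave 0. At an unadjusted p under 0.05 limma on log2(FPKM + 1) gave 5 of 53 factors higher in I/R hearts (9.43%) and 0 lower, where 3.43% of 5041 protein-coding genes were higher and 1.67% lower (all genes 4.23% and 4.21%). With no filter on level the count was the same 5, of 93, where 1222 of 18382 genes reached it in either direction.

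That count depended on single hearts and on the fit. It was 2 without I/R heart 1, 2 without I/R heart 2 (1 of them lower), 1 without I/R heart 3 and 2 without Sham heart 3. Among all genes tested these fits gave, in turn, 1191 of 12056, 808 of 12136, 1018 of 12129 and 835 of 12133. Counts ran between 3 (a pseudocount of 0.1, or a filter at 1 FPKM, which left 42 factors) and 10 (limma voom on recovered reads of protein-coding genes alone, an alternative chosen after seeing the data). Among all genes tested the count was 984 of 12114 with this pseudocount, 929 of 10399 with this filter and 432 of 5040 with voom. The log2 difference was above 0 for 32 factors (60.4%) and below 0 for 21, where it was above 0 for 54.9% of protein-coding genes and 49.7% of all genes. Their median log2 change was 0.06, beside 0.02 for protein-coding genes and 0.00 for all genes tested.

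All 3 I/R hearts lay above all 3 Sham hearts for 10 of 53 factors (18.9%) and below them for 0, where 8.83% of protein-coding genes lay above and 5.12% below (all genes 7.1% and 6.57%). The 10 were Foxc1, Tead1, Foxl1, Hes1, Sox9, Foxf1, Foxd3, Tcf25, Foxo6 and Foxm1. The filter used the mean of both groups, so a low gene could enter through the group where it was high, and the counts over the factors that entered describe those factors only.

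**Figure D2:**
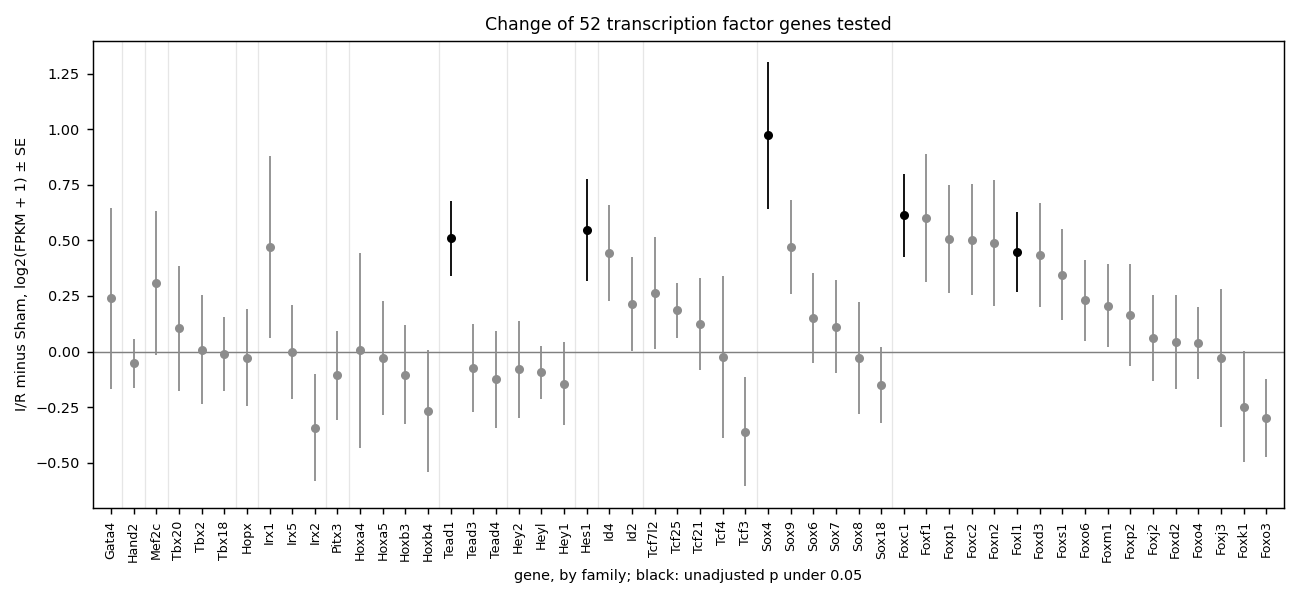
Difference I/R minus Sham on the log2(FPKM + 1) scale with its standard error for 52 of the 53 factors tested, grouped by family; black marks an unadjusted p under 0.05. Sox4 has the largest difference, 0.97, Fox genes lie mostly above 0, and the Hey genes lie just below it.

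Forkhead genes made up 6 of these 10, and 17 of the 53 factors tested. Of 17 Fox genes tested, 14 were higher in I/R hearts and 3 lower, with a median log2 change of 0.23, and in the fits that tested the same number of Fox genes 12 to 15 of the 17 were higher. With a filter at 1 FPKM 11 of 14 were higher, and with no filter 17 of 23, where 25 of 42 and 57 of 93 factors of all families were. Among protein-coding genes in the main fit 54.9% were higher, and 8.83% had all I/R hearts above all Sham hearts. The Fox median was 0.423 with limma voom on protein-coding genes alone. Foxc1, a factor of the outflow tract and of vessel-forming mesenchyme, is a gene of 1 exon at chr13:31806633-31812476 (GRCm38, plus strand) and had 7.61, 8.50 and 9.88 FPKM in I/R hearts, against 4.46, 6.16 and 5.37 FPKM in Sham hearts. Every I/R heart was above every Sham heart. The difference was 0.61 ± 0.19 (SE, log2 scale; limma, unadjusted p = 0.0140, adjusted p = 0.471) and kept an unadjusted p under 0.05 in 19 of 20 fits. Sox4 and Tead1 reached it in 17 of the 20 fits each, and Foxl1 and Hes1 in 11 each. All these fits draw on the same 6 hearts, so they are not independent.

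The promoter sequences of 3 factors are shown because Foxc1 and Sox4 had the largest differences of the 53 factors and Hand2 is an abundant factor with nearly equal means. They are the 250 bases before the gene start in RefSeq GRCm38.p6, 5′ to 3′ on the gene's strand, with CCAAT boxes on either strand (CCAAT or ATTGG) in capitals. The windows are chr13:31806396-31806645 (plus strand) for Foxc1, chr13:28953700-28953949 (minus strand) for Sox4 and chr8:57320733-57320982 (plus strand) for Hand2. For Foxc1 and Sox4 the RefSeq start lies slightly inside the gene span given here, so the last bases of these windows fall within that span. The Sox4 match 8 bases before the RefSeq start is in that part.
Foxc1: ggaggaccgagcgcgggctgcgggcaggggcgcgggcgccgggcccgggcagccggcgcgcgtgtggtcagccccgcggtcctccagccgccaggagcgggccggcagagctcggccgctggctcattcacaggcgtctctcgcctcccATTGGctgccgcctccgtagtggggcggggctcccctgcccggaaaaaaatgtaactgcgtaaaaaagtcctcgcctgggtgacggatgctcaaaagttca
Sox4: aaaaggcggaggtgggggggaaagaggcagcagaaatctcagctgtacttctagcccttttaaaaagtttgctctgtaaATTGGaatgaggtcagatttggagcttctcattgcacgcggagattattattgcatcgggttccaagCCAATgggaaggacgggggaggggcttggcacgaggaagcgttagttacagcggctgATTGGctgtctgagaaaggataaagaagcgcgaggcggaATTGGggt
Hand2: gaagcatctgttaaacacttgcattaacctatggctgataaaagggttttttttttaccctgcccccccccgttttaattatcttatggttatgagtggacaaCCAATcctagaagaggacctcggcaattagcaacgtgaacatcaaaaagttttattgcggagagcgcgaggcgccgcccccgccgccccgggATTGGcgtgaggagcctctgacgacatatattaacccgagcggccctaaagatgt
Foxc1 has 1 match, 101 bases before the start, Sox4 has 4 and Hand2 has 2. A match occurred in 33.8% of 32851 windows of this length and in 28 of 73 windows of 56 of the factors. Sox4 also holds GGAATG, the letters that Tead proteins read in many muscle genes, once and overlapping a CCAAT match, and this occurred in 12.6% of all windows. A match in letters is not a measured binding site.

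Foxf1, Foxc2 and Foxl1 lie side by side on chromosome 8 (GRCm38 121084386 to 121130644), and their means were all higher in I/R hearts. Foxl1, a factor of subepithelial and other mesenchyme, had 1.20, 1.16 and 0.992 FPKM in I/R hearts, against 0.523, 0.575 and 0.562 FPKM in Sham hearts, from 74 reads in I/R hearts and 40 in Sham hearts. Its groups were apart and the spread in each was small (difference 0.45 ± 0.18, limma, unadjusted p = 0.0428, adjusted p = 0.579). Since 1 is added to every value, this scale understates the change of so low a gene, whose ratio of means was 2.02.

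Foxf1 and Foxc2 are named after their values were seen. Foxf1, the forkhead factor of visceral and lung mesoderm, had 1.62, 2.23 and 1.85 FPKM in I/R hearts and 0.293, 1.20 and 1.43 FPKM in Sham hearts. Foxc2, partner of Foxc1 in vessel and lymphatic development, had 7.49, 6.64 and 5.72 FPKM in I/R hearts and 3.82, 6.39 and 3.30 FPKM in Sham hearts. Foxf1 groups did not overlap, and for Foxc2 Sham heart 2 lay among the I/R hearts. The unadjusted p was 0.0755 for Foxf1 and 0.0854 for Foxc2 (limma; adjusted p = 0.623 and 0.639). The genes Foxq1 and Foxf2, which both lie on the same side of Foxc1 on chromosome 13, were below the level tested, with 28 and 20 reads in I/R hearts and 24 and 27 reads in Sham hearts.

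Of the FoxO genes, Foxo3 averaged 101 ± 17 FPKM in I/R hearts and 124 ± 23 FPKM in Sham hearts, with overlap between the groups (difference -0.30 ± 0.18, limma, unadjusted p = 0.134, adjusted p = 0.705). Foxo4 had 18.3, 13.2 and 16.6 FPKM in I/R hearts and 14.2, 15.7 and 16.4 FPKM in Sham hearts, with overlap. Of the 14 genes listed for the FoxO pathway, 8 had a transcript, 6 were tested and 0 reached an adjusted p under 0.05. Cdkn1a, the cell cycle inhibitor p21, had 14.1, 23.3 and 20.2 FPKM in I/R hearts and 8.11, 14.8 and 10.5 FPKM in Sham hearts (limma, unadjusted p = 0.0274, adjusted p = 0.527). Klf15, a metabolic regulator of cardiomyocytes, had 3.16, 2.22 and 3.02 FPKM in I/R hearts and 4.66, 3.67 and 5.65 FPKM in Sham hearts (limma, unadjusted p = 0.0363, adjusted p = 0.559). Cdkn1a overlapped by a narrow margin and Klf15 did not overlap. Akt2, a kinase that phosphorylates FoxO proteins, averaged 29.6 ± 4.7 FPKM in I/R hearts and 23.0 ± 1.3 FPKM in Sham hearts.

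Among Sox genes 6 were tested, 4 higher and 2 lower. Sox4, a SoxC factor of the outflow tract and of progenitor cells, lies in 1 exon at chr13:28948919-28953713 (GRCm38, minus strand). It had 39.6, 27.9 and 17.0 FPKM in I/R hearts and 17.1, 13.5 and 9.66 FPKM in Sham hearts. I/R heart 3 lay just under Sham heart 1, so the groups overlapped by a narrow margin, and the hearts within each group were far apart. The difference of 0.97 ± 0.33 was the largest of the 53 factors (limma, unadjusted p = 0.0219, adjusted p = 0.501), from 3291 reads in I/R hearts and 1771 in Sham hearts. Its coefficient of variation was 40.1% among I/R hearts and 27.6% among Sham hearts, where counting alone would give 3.02% in I/R hearts and 4.12% in Sham hearts.

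Sox9, a factor of valve and skeletal progenitors, is named after its values were seen. It had 4.91, 4.19 and 4.57 FPKM in I/R hearts and 2.42, 4.01 and 2.74 FPKM in Sham hearts. All I/R hearts were higher, the lowest by a small margin over Sham heart 2 (difference 0.47 ± 0.21, limma, unadjusted p = 0.0634, adjusted p = 0.609). The SoxF pair showed no such separation, with differences of -0.15 ± 0.17 for Sox18 and 0.11 ± 0.21 for Sox7.

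**Figure D3:**
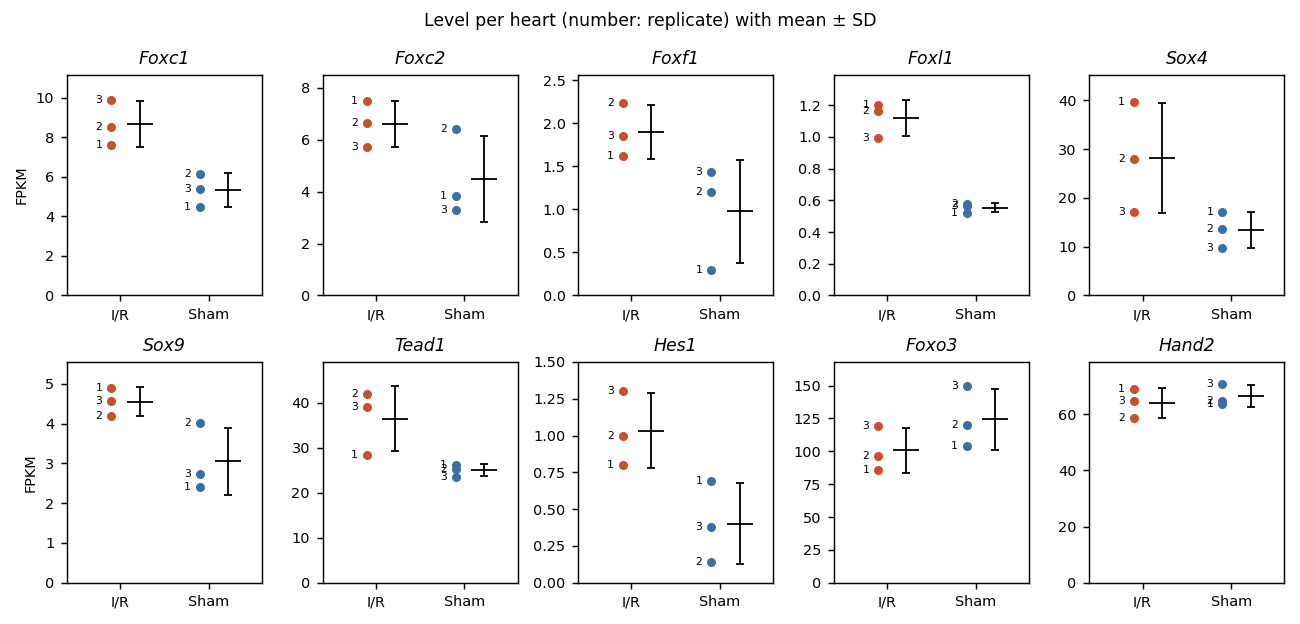
FPKM of 10 factors in each heart (dots, numbered by replicate; I/R left, Sham right) with the mean and SD of each group as the bar beside them. Foxc1, Foxl1, Tead1, Hes1, Foxf1 and Sox9 have separate groups, Sox4, Foxc2, Foxo3 and Hand2 overlap.

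Tead1, the DNA-binding partner of Yap and Taz that also binds muscle gene promoters, had 28.4, 41.9 and 39.1 FPKM in I/R hearts and 26.1, 25.3 and 23.6 FPKM in Sham hearts. All I/R hearts were higher, with I/R heart 1 close to the Sham hearts. The difference was 0.51 ± 0.17 (limma, unadjusted p = 0.0194, adjusted p = 0.498), and most of the signal came from a listed transcript of 546 bases. The other listed transcript, of 1495 bases, had 1.48, 2.18 and 1.45 FPKM in I/R hearts and 0.608, 2.15 and 2.03 FPKM in Sham hearts. In that transcript the groups overlapped. Tead3 and Tead4 had means of 0.683 ± 0.212 and 3.14 ± 0.68 FPKM in I/R hearts and 0.763 ± 0.113 and 3.50 ± 0.62 FPKM in Sham hearts. Of 12 genes listed as Tead and Hippo partners, 5 had a transcript and 3 were tested, none at an adjusted p under 0.05. Lats2, the kinase that keeps Yap out of the nucleus, had 0.861, 0.744 and 0.846 FPKM in I/R hearts and 1.34, 1.72 and 2.75 FPKM in Sham hearts. Its groups were apart, on only 6 reads in I/R hearts and 15 in Sham hearts (limma, unadjusted p = 0.0262, adjusted p = 0.519). Cyr61, a secreted matricellular target of Yap, was the most abundant of the list, with 498, 921 and 997 FPKM in I/R hearts and 390, 726 and 666 FPKM in Sham hearts. Ctgf, another such target, averaged 2.61 ± 0.31 FPKM in I/R hearts and 2.51 ± 1.06 FPKM in Sham hearts.

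Hes1 and the Hey genes are effectors of the Notch pathway. Hes1, the repressor switched on by Notch, had 0.797, 0.995 and 1.31 FPKM in I/R hearts and 0.688, 0.141 and 0.377 FPKM in Sham hearts, from 37 reads in I/R hearts and 16 in Sham hearts. The groups were apart by a small margin between I/R heart 1 and Sham heart 1 (difference 0.55 ± 0.23, limma, unadjusted p = 0.0495, adjusted p = 0.591). Hey1, Hey2 and Heyl, far more abundant, were lower by differences of -0.14 ± 0.19, -0.08 ± 0.22 and -0.09 ± 0.12, and their groups overlapped. The Hey1 difference turned positive without Sham heart 3 (0.03) and the Hey2 difference without I/R heart 1 (0.12). Notch1 averaged 63.8 ± 3.4 FPKM in I/R hearts and 66.0 ± 7.7 FPKM in Sham hearts, and Notch3 averaged 78.1 ± 6.8 FPKM in I/R hearts and 75.2 ± 7.8 FPKM in Sham hearts. Of 11 genes listed for the pathway 7 were tested, 4 higher and 3 lower, none with an unadjusted p under 0.05. Dll4, an endothelial Notch ligand named after its values were seen, had 6.52, 8.67 and 8.35 FPKM in I/R hearts and 6.47, 5.65 and 4.54 FPKM in Sham hearts. Its groups were apart, with I/R heart 1 close to Sham heart 1 (difference 0.44 ± 0.20, limma, unadjusted p = 0.0639, adjusted p = 0.609).

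For Id proteins, which block bHLH factors and answer to BMP, 2 of 3 listed genes were tested. Id4 had 1.69, 2.45 and 2.42 FPKM in I/R hearts and 1.08, 1.70 and 1.26 FPKM in Sham hearts. I/R heart 1 lay just under Sham heart 2, and the difference was 0.44 ± 0.22 (limma, unadjusted p = 0.0790, adjusted p = 0.625). Bmp2, a ligand of this pathway, had 3.77, 9.07 and 5.61 FPKM in I/R hearts and 2.24, 3.50 and 2.49 FPKM in Sham hearts. The groups were apart (difference 0.88 ± 0.31, limma, unadjusted p = 0.0253, adjusted p = 0.514). Of the 14 genes listed for BMP and Id, 5 were tested, 3 higher and 2 lower. Smad4, the shared mediator, averaged 33.0 ± 2.0 FPKM in I/R hearts and 31.2 ± 2.1 FPKM in Sham hearts. Smad7, the inhibitory Smad, averaged 3.63 ± 1.52 FPKM in I/R hearts and 5.27 ± 0.44 FPKM in Sham hearts.

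Factors of the working myocardium and of the chambers had no difference beyond their spread. Of the cardiac core 9 genes were tested, and in 1, Tead1, the groups were apart, where 8.83% of protein-coding genes had all I/R hearts above and 5.12% all below. Hand2 differed by -0.05 ± 0.11. Tbx20, needed to maintain the adult myocardium, averaged 5.67 ± 1.62 FPKM in I/R hearts and 5.20 ± 1.45 FPKM in Sham hearts. Tbx18, a factor of the sinus node head and the epicardium, averaged 6.65 ± 0.77 FPKM in I/R hearts and 6.69 ± 0.39 FPKM in Sham hearts. Tbx2, the repressor of the atrioventricular canal, averaged 10.6 ± 1.3 FPKM in I/R hearts and 10.9 ± 3.4 FPKM in Sham hearts. These T-box means lie within 1 SD of each other. Irx5, which shapes the transmural gradient of repolarization in mice, averaged 2.60 ± 0.28 FPKM in I/R hearts and 2.64 ± 0.66 FPKM in Sham hearts. Hopx, the homeodomain-only protein, averaged 7.88 ± 2.13 FPKM in I/R hearts and 7.92 ± 1.03 FPKM in Sham hearts.

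Gata4 and Mef2c were measured on few reads. Gata4 had 1.90, 1.32 and 0.187 FPKM in I/R hearts and 0.148, 0.911 and 1.21 FPKM in Sham hearts, from 19 reads in I/R hearts and 13 in Sham hearts. The low hearts, I/R 3 and Sham 1, fell in different groups, and the difference was 0.24 ± 0.41. Mef2c had 2.45, 3.71 and 5.36 FPKM in I/R hearts and 3.09, 3.93 and 1.71 FPKM in Sham hearts, from 60 reads in I/R hearts and 51 in Sham hearts. Both genes overlapped between the groups. Of 20 genes listed as cofactors of cardiac factors, 6 had a transcript, 5 were tested and all 5 had positive differences, none with an unadjusted p under 0.05; for Myocd the difference of 0.05 turned negative under limma voom (-0.0231), and its mean was 7.60 ± 2.41 FPKM in I/R hearts and 10.6 ± 10.6 FPKM in Sham hearts. Smyd1, a muscle histone methyltransferase, had 19.8, 63.7 and 43.0 FPKM in I/R hearts and 32.9, 35.0 and 41.8 FPKM in Sham hearts. Myocd, the coactivator of serum response factor, had 7.33, 10.1 and 5.35 FPKM in I/R hearts and 7.97, 22.2 and 1.56 FPKM in Sham hearts.

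The Tcf symbols gave 5 tested genes, 3 with log2 differences above 0 and 2 below. For Tcf4 the sign depended on the scale: its log2 difference was -0.02 and its mean FPKM was slightly higher in I/R hearts. Tcf25 had 21.9, 21.7 and 23.0 FPKM in I/R hearts and 18.4, 21.2 and 18.7 FPKM in Sham hearts. The I/R hearts were all higher, by little (difference 0.19 ± 0.12, limma, unadjusted p = 0.178, adjusted p = 0.740). Tcf4, an E protein, averaged 12.8 ± 5.3 FPKM in I/R hearts and 12.6 ± 3.9 FPKM in Sham hearts, the widest spread of the abundant Tcf genes. Tcf21, a fibroblast and epicardial factor chosen for description after its values were seen, averaged 4.53 ± 0.62 FPKM in I/R hearts and 4.10 ± 0.81 FPKM in Sham hearts. All 7 tested genes of the 10 listed for the Wnt pathway overlapped between the groups except Lrp6, a Wnt coreceptor, with 46.8, 41.1 and 45.3 FPKM in I/R hearts and 40.8, 41.1 and 39.5 FPKM in Sham hearts (limma, unadjusted p = 0.258, adjusted p = 0.794), where I/R heart 2 and Sham heart 2 were nearly equal. Gsk3b, the kinase that marks β-catenin for breakdown, averaged 47.9 ± 0.9 FPKM in I/R hearts and 45.9 ± 2.1 FPKM in Sham hearts.

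Foxs1 averaged 15.1 ± 2.3 FPKM in I/R hearts and 11.8 ± 2.8 FPKM in Sham hearts (difference 0.34 ± 0.21). Pitx3 averaged 0.455 ± 0.183 FPKM in I/R hearts and 0.562 ± 0.128 FPKM in Sham hearts. Hoxb4, the most abundant Hox gene, had 0.608, 1.66 and 0.747 FPKM in I/R hearts and 1.89, 1.29 and 0.970 FPKM in Sham hearts. All of these overlapped between the groups. Over the tested factors not described singly, log2 differences lay between -0.36 (Tcf3) and 0.51 (Foxp1).

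Foxd3, Foxo6 and Foxm1 had separate groups and are named after their values were seen. Foxd3, known from neural crest, had 0.895, 1.21 and 1.87 FPKM in I/R hearts and 0.478, 0.803 and 0.833 FPKM in Sham hearts. Foxm1, a driver of cell division genes, had 0.950, 0.749 and 0.659 FPKM in I/R hearts and 0.456, 0.646 and 0.535 FPKM in Sham hearts. Foxo6 had 3.98, 4.25 and 3.57 FPKM in I/R hearts and 2.74, 3.41 and 3.49 FPKM in Sham hearts. For each of these genes the lowest I/R heart exceeded the highest Sham heart by little. Their differences were 0.43 ± 0.23 for Foxd3, 0.23 ± 0.18 for Foxo6 and 0.21 ± 0.19 for Foxm1, with unadjusted p of 0.108, 0.253 and 0.308 (limma; adjusted p = 0.667, 0.790 and 0.826).

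Irx1 and Irx2, neighbours on chromosome 13, were also looked at after their values were seen. Irx1 had 3.70, 1.65 and 4.03 FPKM in I/R hearts and 2.38, 0.699 and 3.12 FPKM in Sham hearts, so that heart 2 was the lowest of both groups. Irx2 had 0.579, 1.00 and 0.569 FPKM in I/R hearts and 1.35, 0.693 and 1.54 FPKM in Sham hearts, from 8 reads in I/R hearts and 14 in Sham hearts. Both genes overlapped between the groups, with differences of 0.47 ± 0.41 for Irx1 and -0.34 ± 0.24 for Irx2.

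Levels of cell type markers are set beside these values. Of the fibroblast list 5 of 7 genes were tested, 4 higher in I/R hearts, and its listed members summed to 314, 294 and 333 FPKM in I/R hearts and 222, 285 and 210 FPKM in Sham hearts. None of its listed genes was at 0 in all hearts, but Col1a2 was at 0 in 5 of 6 hearts. The ventricular list had 7 of 7 tested genes lower in I/R hearts, with a median log2 difference of -0.41. Listed endothelial markers summed to 151, 145 and 119 FPKM in I/R hearts and 128, 108 and 104 FPKM in Sham hearts. Nearly all of that was Kdr, a VEGF receptor, while Tie1 averaged 1.35 ± 0.38 FPKM in I/R hearts and 2.57 ± 0.23 FPKM in Sham hearts (limma, unadjusted p = 0.0207, adjusted p = 0.501) and Egfl7 averaged 0.116 ± 0.201 FPKM in I/R hearts and 0.403 ± 0.136 FPKM in Sham hearts. Listed macrophage markers summed to 1038, 1067 and 1156 FPKM in I/R hearts and 925, 855 and 1037 FPKM in Sham hearts. The part of these cells in the higher Fox and Sox means of I/R hearts was not tested. In bulk heart RNA, fewer cells of a type and less RNA per cell cannot be told apart.

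Hearts differed from each other in Hoxa3, Hoxa4, Hoxa5 and Gata5 more than the groups did. Hoxa4, an anterior Hox gene of the kind active in heart progenitors, had 0.0816, 1.62 and 0.240 FPKM in I/R hearts and 0.317, 1.43 and 0.0867 FPKM in Sham hearts, from 27 reads in I/R hearts and 28 in Sham hearts. I/R heart 2 and Sham heart 2 were high and the others low. Hoxa5 had 0.693, 1.56 and 1.02 FPKM in I/R hearts and 1.35, 1.38 and 0.663 FPKM in Sham hearts. Hoxa3 had 0.100, 0.477 and 0.148 FPKM in I/R hearts and 0.351, 0.640 and 0.160 FPKM in Sham hearts. In each of these genes I/R heart 2 was the highest I/R heart and Sham heart 3 the lowest Sham heart. Hoxa4, Hoxa5 and Hoxa3 were described after their values were seen.

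The lncRNAs of the same cluster on chromosome 6, read from the opposite strand, followed a like order. Hotairm1, beside Hoxa2, had 5.70, 23.8 and 7.76 FPKM in I/R hearts and 13.1, 15.5 and 5.54 FPKM in Sham hearts. Hoxaas3, which overlaps Hoxa3 to Hoxa6, had 0.614, 5.23 and 0.964 FPKM in I/R hearts and 2.60, 1.84 and 0.224 FPKM in Sham hearts. I/R heart 2 was the highest of 6 in both. No label or header says whether strand was used in counting, so reads of a gene and of an overlapping lncRNA cannot be told apart, and lncRNA FPKM rest on other totals than those of protein-coding genes.

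Gata5, a factor of endocardial and early cardiac cells, had 0.0794, 1.27 and 0.117 FPKM in I/R hearts and 0.0616, 0.127 and 0.380 FPKM in Sham hearts. I/R heart 2 stood alone, with Sham heart 3 next. Myl7, the atrial myosin light chain, had 0.220, 326 and 10.4 FPKM in I/R hearts and 0.342, 43.2 and 115 FPKM in Sham hearts, and Sln, the atrial sarcolipin, 0, 43.2 and 0.679 FPKM in I/R hearts and 0, 4.25 and 12.2 FPKM in Sham hearts. Gata5, Myl7 and Sln thus had the same heart highest in each group, but the atrial markers Nppa and Myl4 did not share this order. Nppa had 465, 583 and 811 FPKM in I/R hearts and 329, 672 and 468 FPKM in Sham hearts. Myl4 had 1.07, 0.751 and 0.436 FPKM in I/R hearts and 1.03, 2.13 and 1.34 FPKM in Sham hearts. The whole list of 4 atrial markers summed to 466, 953 and 822 FPKM in I/R hearts and 330, 722 and 596 FPKM in Sham hearts, carried mainly by Nppa. The part of atrial tissue in the Gata5 values was not tested.

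**Figure D4:**
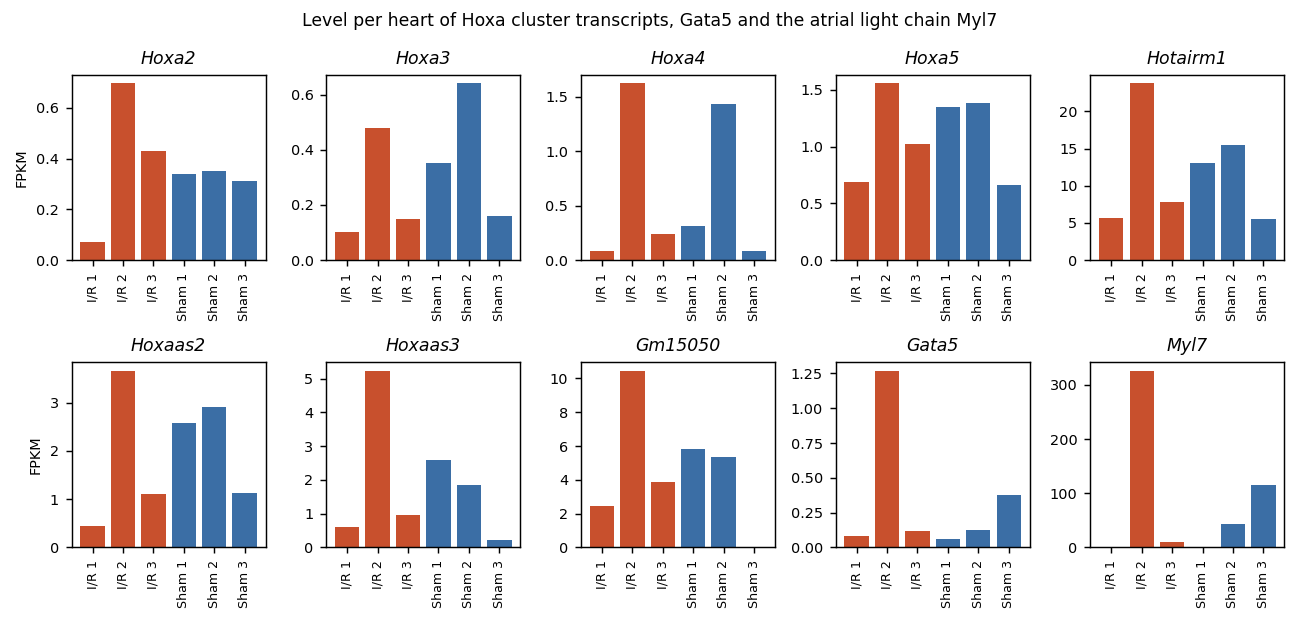
FPKM in each heart of Hoxa genes, 4 lncRNAs of the Hoxa cluster, Gata5 and the atrial light chain Myl7; orange bars are I/R hearts, blue bars Sham hearts, axes start at 0. I/R heart 2 is the highest I/R heart in every panel, and Myl7 ranges between 0.220 and 326 FPKM within the I/R group.

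The spread between hearts of a group exceeded counting error for most well-measured factors. Over the 26 factors with at least 300 reads, the median coefficient of variation within a group was 14.8%, and counting alone would give 6.62%. For 37 of the 93 factors fewer than 50 reads were found in all 6 hearts together, so their levels are known only roughly.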

How the data were processed

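NEBNext kits were used to select poly(A) RNA and build 1 library for each of the 6 hearts, per the labels' protocols. Tools named in the submitters' processing notes are fastp (0.23.0), HISAT2 (2.1.0), HTSeq (0.10.0) and bcl2fastq (2.19.1.403), with builds mm10, GRCm38 and GRCm39; no source used here gives the strand setting or annotation. What the authors deposited was FPKM for every transcript. Of 21198 rows, 40 were repeats and were dropped. For 91 of the 93 factors the span in the table overlapped the RefSeq gene of GRCm38, so coordinates are given as GRCm38.

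Levels were summed per gene over unique transcripts. The test took 5041 protein-coding genes and 7073 lncRNAs whose mean over the hearts reached 0.5 FPKM, on log2(FPKM + 1), in limma 3.58.1 (R 4.3.3), with group as the factor, a variance trend, two-sided p-values and Benjamini-Hochberg adjustment over all 12114. The factors and the lists of partners and markers were chosen with earlier results of these data known. A factor was named where its mean reached 10 FPKM, its unadjusted p was under 0.05, it led its family or it belonged to the cardiac core; a partner, where its unadjusted p was under 0.05 or it led its list. Whole reads were recovered for 11744 of 11745 protein-coding rows and 9413 of 9413 lncRNA rows. Some named genes are not reported here. Also tried were other pseudocounts, filters, scalings and variance models, library weights, the most abundant transcript, a replicate block, limma voom and each heart left out. The fit and the recovery of reads were tested on simulated data. P-values set the group difference against the spread between these hearts, with each gene's variance drawn toward a trend over all genes tested. Read counts give counting error only. Tables and figures used Python 3.11.15, pandas 2.3.3 and matplotlib 3.10.9.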

Additional observations from a re-analysis of the deposited data

How the results depend on the processing

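In every fit 0 genes had an adjusted p under 0.05. Factors at an unadjusted p under 0.05 numbered 5 in the fit reported, 3 with a pseudocount of 0.1, 3 with a filter at 1 FPKM, 8 among protein-coding genes only, 9 with limma voom on recovered reads, 10 with limma voom on protein-coding genes only, and 1 to 7 with a heart left out. Among all genes tested the number was 1023 of 12114 in the fit reported, 984 of 12114 with the pseudocount and 929 of 10399 with the filter. It was 455 of 5041 among protein-coding genes only, 1011 of 12113 with limma voom and 432 of 5040 with voom on protein-coding genes. With a heart left out it was 808 to 1191. The median log2 change of the factors was 0.06, 0.113 with the most abundant transcript, 0.122 with limma voom on protein-coding genes only, and 0.034 to 0.143 with a heart left out. Numbers shared by hearts do not pair them in the labels. Deviations of same-numbered hearts correlated at 0.153, 0.0283 and 0.0287, those of other pairs at -0.136 to 0.111. I/R hearts 1 and 2 correlated best with the Sham heart of the same number, and I/R heart 3 with Sham heart 2. With the replicate block 4 factors had an unadjusted p under 0.05, 3 higher and Foxo3 lower, beside 1125 of 12114 genes. In limma voom Foxo3 was also lower. No adjusted call changed with the block. Another scaling moved the median of all genes by less than 0.1.

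Alternatives were followed for 53 single genes, 38 of the tested factors and 15 partners, and 32 of these kept their direction in every setting. Under limma voom Foxo4 became -0.015, Hoxa4 -0.182, Hoxb3 0.0836, Myocd -0.0231, Notch3 -0.00249, Pitx3 0.0456 and Tbx2 -0.0728. On protein-coding genes only, voom gave -0.115 for Hoxa4, 0.142 for Hoxb3, 0.0774 for Pitx3 and -0.0215 for Tbx2. Pseudocounts of 0.1 and 0.5 gave -0.0543 and -0.00616 for Hoxa4. Quantile normalization gave 0.00122 for Hoxa5 and 0.0228 for Irx5, and median centring 0.00671 for Irx5 and 7.2e-05 for Tbx18. Library weights gave 0.0109 for Hopx, -0.0747 for Myocd, 0.0125 for Tbx18 and -0.0280 for Tbx2. The cause was not tested in any of these.

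With a heart left out log2 differences ranged over -0.186 to 0.266 for Ctgf, -0.0575 to 0.163 for Foxo4, -0.0415 to 0.615 for Gata4, -0.109 to 0.0091 for Hand2, -0.273 to 0.0319 for Hey1, -0.193 to 0.117 for Hey2, -0.217 to 0.0732 for Hopx, -0.234 to 0.251 for Hoxa4, -0.198 to 0.113 for Hoxa5, -0.0838 to 0.140 for Irx5, -0.783 to 0.807 for Myocd, -0.126 to 0.0392 for Notch1, -0.0140 to 0.138 for Notch3, -0.172 to 0.00186 for Pitx3, -0.305 to 0.515 for Smyd1, -0.0897 to 0.302 for Sox7, -0.0777 to 0.0684 for Tbx18, -0.233 to 0.197 for Tbx2, -0.106 to 0.322 for Tbx20 and -0.285 to 0.332 for Tcf4.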

Other observations

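The table lists 88 lncRNAs within 5000 bases of 54 of the factors, 57 of them on the opposite strand. Of 73 tested, 33 were higher and 40 lower in I/R hearts. An unadjusted p under 0.05 (limma) was reached by 3, all lower, which is 4.11% where 10.8% of all lncRNAs reached it; none had an adjusted p under 0.05. Gm9967, beside Tbx6, had 8.04, 7.47 and 7.11 FPKM in I/R hearts, against 15.3, 13.3 and 11.5 FPKM in Sham hearts (limma, unadjusted p = 0.00282, adjusted p = 0.386). Sox5os2, inside Sox5 on the opposite strand, had 5.04, 7.37 and 4.75 FPKM in I/R hearts, against 15.4, 14.1 and 8.66 FPKM in Sham hearts (limma, unadjusted p = 0.00654, adjusted p = 0.420). Gm29824, beside Tbx20, had 0.413, 1.41 and 0.518 FPKM in I/R hearts, against 1.53, 1.69 and 1.95 FPKM in Sham hearts (limma, unadjusted p = 0.0409, adjusted p = 0.570). The groups were apart in all 3, which were picked by their p-values. Tbx6 and Sox5 themselves had 12 and 3 reads in I/R hearts and 11 and 8 reads in Sham hearts. Other tested neighbours with groups apart were Gm15556 and Gata5os, with all I/R hearts above, and 2610027K06Rik and Gm15402, with all I/R hearts below. Among all genes tested 7.1% had all I/R hearts above and 6.57% all below.

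Several neighbours were abundant. Hopxos, within Hopx on the opposite strand, averaged 520.4 ± 87.8 FPKM in I/R hearts and 517 ± 60 FPKM in Sham hearts. Crnde, beside Irx5, averaged 50.5 ± 5.5 FPKM in I/R hearts and 46.6 ± 5.2 FPKM in Sham hearts. Foxo6os, beside Foxo6, averaged 41.7 ± 3.4 FPKM in I/R hearts and 41.5 ± 9.1 FPKM in Sham hearts. Tbx3os1, which overlaps Tbx3, averaged 23.0 ± 2.7 FPKM in I/R hearts and 29.3 ± 6.1 FPKM in Sham hearts (SD, n = 3 each). Fendrr, beside Foxf1, averaged 0.943 ± 0.501 FPKM in I/R hearts and 0.727 ± 0.651 FPKM in Sham hearts, and its groups overlapped.

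Bmp10, a ligand known from the right atrium of adult mice, had 0.0579, 0.0250 and 0 FPKM in I/R hearts and 0, 0.0462 and 1.57 FPKM in Sham hearts. Sham heart 3 held nearly all of its reads (3 in I/R hearts and 53 in Sham hearts), whereas Myl7 and Gata5 were highest in I/R heart 2. These genes were chosen after their values were seen, and chamber is not given in the labels.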
